A study of Mus musculus with 2 samples.

Results

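The genes described here are 10 members of fibroblast growth factor (FGF) signalling in the newborn mouse lung, namely the ligands Fgf1, Fgf7, Fgf10 and Fgf18, the receptors Fgfr1, Fgfr2, Fgfr3 and Fgfr4, and the feedback inhibitors Spry1 and Spry2. They were chosen by name, as rows of the count matrix of each of 2 Drop-seq batches, and all 10 were present, of 26867 genes with at least 1 UMI in the cells kept. Drop-seq captures single cells in droplets with barcoded beads, and a unique molecular identifier (UMI) marks each captured transcript molecule. Each batch was the whole lung of 1 wild-type female C57BL/6J mouse at postnatal day 1 (PND1), dissociated with TrypLE and collagenase. No treatment, genotype or age was compared, and the mouse and its batch cannot be told apart. After removal of cells with over 10% mitochondrial UMIs, Batch 1 kept 2388 cells and Batch 2 kept 5615, with 4432553 and 18232639 UMIs and a median of 1386.5 and 2014 UMIs per cell. The batches shared 0 cell barcodes.

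FGF ligands are secreted proteins that bind tyrosine kinase receptors on nearby cells together with heparan sulphate, and the activated receptor signals through the RAS and ERK cascade. In the developing lung, FGF10 made by the mesenchyme is the classical signal for branching of the epithelium. FGF10 and FGF7, also called keratinocyte growth factor, act on the epithelial splice form of FGFR2. FGF18 acts on FGFR3 and other receptors and has a known part in alveolar formation, and FGF1 can bind every receptor of the family. Loss of Fgfr3 together with Fgfr4 in the mouse impairs alveolar formation. Sprouty genes are induced by receptor signalling and inhibit it downstream of the receptor. Drop-seq counts the 3′ ends of transcripts, so the epithelial and mesenchymal splice forms of a receptor could not be told apart.

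Cells were described in 18 classes, which carry the study's names, with its myofibroblast subtypes joined as MyoFB and its club and Sox2-high subtypes joined as Secretory airway. Most Batch 1 cells had a label listed by the study, while 6005 cells, 390 of them in Batch 1, were assigned by a model of the counts that left out 63 FGF genes. The listed labels came from clusters of all genes, and Fgf10 is among the genes by which the study names the matrix fibroblast class MatrixFB-1. In each class checked, which were all except AT1/AT2 and Proliferative Lymphocyte, the marker genes were higher than in the other cells in both batches. Most of these markers are those by which the study names the classes, and they were in the model. This result therefore cannot test the labels. When listed cells were masked, 91.2% returned to their class, with the lowest shares in Proliferative Lymphocyte (42.9%), Smooth Muscle (72.2%), MyoFB (76.0%) and AT1/AT2 (76.2%). Every label of Batch 2 came from the model, and all listed cells were of Batch 1, so this check did not cover Batch 2. In MatrixFB-2, 19 of 94 and 11 of 98 cells carried at least 2 markers of mesothelium. In the class named Basophils, 33 of 40 cells of Batch 2 and 0 of 5 of Batch 1 carried at least 2 neutrophil markers. Another 194 cells of contaminant classes were left out, and no doublet caller was run. Levels are given as UMIs of the gene per 10000 UMIs of a class in Batch 1 and then in Batch 2, with exact Poisson 95% intervals where shown. Shares of cells with at least 1 UMI carry Wilson 95% intervals, and both kinds of interval cover counting error only. The share of a gene's UMIs held by a tissue also follows that tissue's part of all UMIs, which differed between the batches. MatrixFB-1 was 37.6% and 21.7% of the cells, and AT1/AT2 was 2.09% and 9.24%. Macrophages served as a reference for free RNA in the droplets. Their levels of the 10 genes were between 0 and 0.151 per 10000, and at most 2.5% of them held a UMI of any member, at a median of 1335.5 and 1751 UMIs per cell.

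The ligand Fgf10 (chr13:118669791-118792115, forward strand, GRCm38) was a gene of MatrixFB-1, the fibroblast class with Tcf21 and Vcam1. Its level there was 0.935 (0.777 to 1.11) UMIs per 10000 in Batch 1 and 1.56 (1.4 to 1.73) in Batch 2, and 11.6% (9.65 to 13.8) and 21.5% (19.3 to 23.9) of the cells held a UMI, against 0.833% and 0% of macrophages. Batch 2 lay above Batch 1, with intervals apart. MatrixFB-1 stood above the next class, MatrixFB-2 at 0.308 and 0.294, by more than the range between the batches, and MatrixFB-2 stood above the class below it in the same way. MyoFB, the myofibroblast class, had 0.177 and 0.0346. Smooth Muscle had 0 and 0 Fgf10 UMIs, among 67162 and 107484 UMIs of all genes. Mesenchymal cells held 90.5% and 94.1% of all Fgf10 UMIs. When every cell was thinned to 1000 UMIs, which left out 204 and 144 shallower cells of the class, 8.36% and 13.1% of MatrixFB-1 cells still held a UMI.

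Fgf7 (chr2:126034658-126091185, forward strand) spread more widely over the mesenchyme than Fgf10. MyoFB had 0.706 (0.365 to 1.23) UMIs per 10000 in Batch 1 and 2.09 (1.74 to 2.5) in Batch 2, and MatrixFB-1 had 0.859 (0.709 to 1.03) UMIs per 10000 in Batch 1 and 1.61 (1.45 to 1.78) in Batch 2. Smooth Muscle had 1.04 and 1.21, from 7 and 13 UMIs. These classes overlapped between batches, and among the leading classes only the step from Smooth Muscle down to MatrixFB-2, with 0.103 and 0.809, exceeded the batch ranges. MyoFB in Batch 1 lay below MatrixFB-2 in Batch 2. A UMI was seen in 8.4% (4.75 to 14.4) and 21.6% (17.8 to 26.1) of MyoFB cells and in 10.6% (8.73 to 12.8) and 21% (18.8 to 23.4) of MatrixFB-1 cells. At 1000 UMIs per cell the shares were 4.05% and 16% in MyoFB and 6.77% and 12.4% in MatrixFB-1, so that the higher value of Batch 2 was also present at equal depth. No Fgf7 UMI was found in AT2 cells in either batch, where 3 counts, the limit that a count of 0 allows, would be 0.0685 and 0.0153 per 10000. The mesenchyme held 91.3% and 95.1% of all Fgf7 UMIs.

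Fgf18 (chr11:33117430-33147400, reverse strand) was found in both epithelium and mesenchyme. AT1 cells, the thin gas exchange cells of the alveolus, had 1.18 (0.738 to 1.78) UMIs per 10000 in Batch 1 and 0.503 (0.357 to 0.687) in Batch 2. MyoFB had 0.824 and 0.83, and Smooth Muscle had 1.79 and 0.465, the last from 12 and 5 UMIs. The order of these leading classes did not exceed the batch ranges, while all were above MatrixFB-2, with 0.257 and 0.257. MatrixFB-1 had 0.0151 and 0.0132, close to the level of macrophages at 0 and 0.0146. In MatrixFB-2 the level was 0.721 and 0.724 in the cells with mesothelial markers, from 3 UMIs in each batch, and 0.131 and 0.174 in the rest. The share of AT1 cells with a UMI was 18.8% (11.9 to 28.4) and 9.75% (6.95 to 13.5). Epithelial cells held 44.9% and 62.1% of the Fgf18 UMIs and mesenchymal cells 47.8% and 36.2%. Over all epithelial cells the level was 0.341 and 0.134 per 10000, and over all mesenchymal cells 0.179 and 0.17. The higher epithelial share in Batch 2 thus did not go with a higher level.

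Fgf1 (chr18:38838673-38929472, reverse strand) was mainly epithelial. Its level was 1.77 (1.22 to 2.48) UMIs per 10000 in Batch 1 and 1.42 (1.16 to 1.71) in Batch 2 in AT1 cells, and 1.43 and 0.654 in AT1/AT2, the alveolar class that shares markers of both cell types. Secretory airway cells had 0.949 and 0.689, where the value of Batch 1 rests on 5 cells. AT2 cells, which make surfactant, had 0.639 and 0.315. AT1, AT1/AT2 and Secretory airway overlapped with their neighbour in this order, and the step from Secretory airway to AT2 exceeded the batch ranges. Ciliated cells, the class below AT2, had 0 and 0.86, and in Batch 2 lay above AT1/AT2 and Secretory airway. Their 0 in Batch 1 rests on 8 cells with 31254 UMIs of all genes. A UMI was present in 31.8% (22.8 to 42.3) and 24.2% (19.8 to 29.2) of AT1 cells, and at 1000 UMIs per cell in 17.8% and 10.4%. In AT1/AT2 the shares were 36% and 31.4% before thinning and 10.6% and 4.92% after it, at a median of 4041 and 5310 UMIs per cell against 1715 and 1918 in AT1. Vascular endothelium had 0.249 and 0.121 and MatrixFB-1 0.0528 and 0.0352. Epithelial cells held 62.3% and 88.5% of the UMIs, and 16 of the 154 UMIs of Batch 1 were in the contaminant classes. The Fgf1 level over all epithelial cells was 1.06 and 0.655 per 10000.

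**Figure D1:**
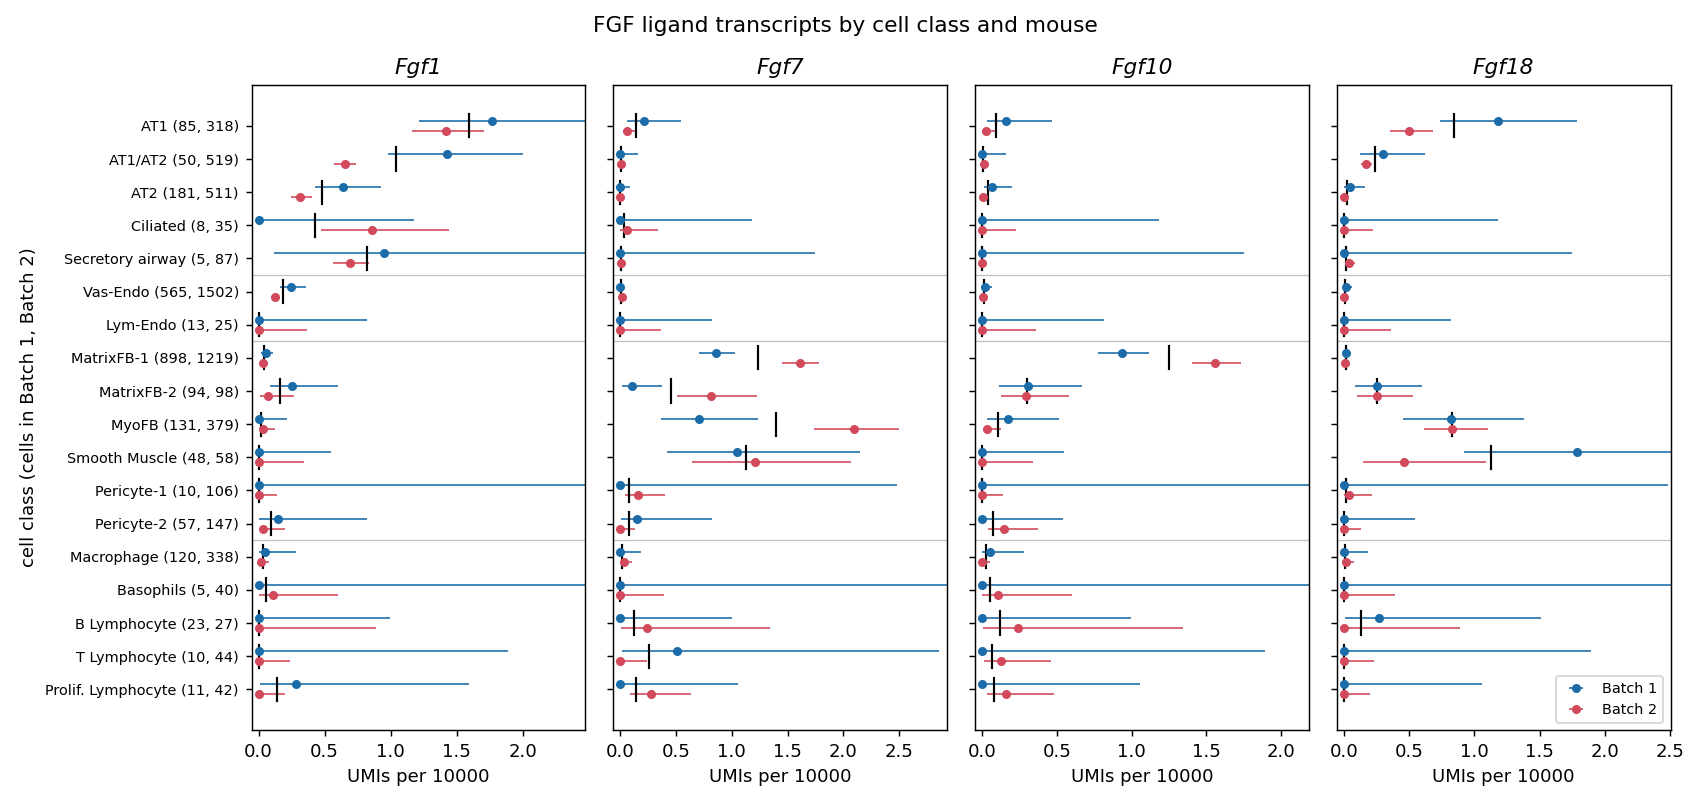
Levels of the 4 ligands in UMIs per 10000 UMIs of a class (horizontal axis, 1 panel per gene) in the 18 classes (vertical axis, with the cells of each batch in parentheses), with 1 point per batch, exact Poisson 95% intervals as bars and the mean of the 2 batches as a black tick; bars of small classes that run past the axis are cut off there. Fgf10 is high in MatrixFB-1 (mean 1.25), Fgf7 in MyoFB, MatrixFB-1 and Smooth Muscle, Fgf18 in Smooth Muscle, AT1 and MyoFB, and Fgf1 in AT1 (mean 1.59).

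Among the receptors, Fgfr2 was highest in AT2 and AT1/AT2 cells, while AT1, the other alveolar class, was far lower. AT2 cells had 2.83 (2.36 to 3.38) UMIs per 10000 in Batch 1 and 1.99 (1.8 to 2.2) in Batch 2, and AT1/AT2 cells had 1.9 (1.38 to 2.56) UMIs per 10000 in Batch 1 and 1.54 (1.42 to 1.67) in Batch 2. AT2 exceeded AT1/AT2, and AT1/AT2 exceeded all further classes, by more than the batch ranges. AT1 cells had 0.321 and 0.451, close to MyoFB at 0.294 and 0.467, and Secretory airway cells had 0.949 and 0.305. A UMI was found in 44.2% (37.2 to 51.5) and 46% (41.7 to 50.3) of AT2 cells, and 2 or more UMIs in 17.1% and 17.4%. Thinned to 1000 UMIs, 18.9% and 18.2% of AT2, 19.1% and 11% of AT1/AT2 and 4.11% and 5.19% of AT1 cells held a UMI, so that at equal depth AT2 was above AT1 in both batches and above AT1/AT2 in Batch 2 only. Vascular endothelium had 0.166 and 0.265 and MatrixFB-1 0.0678 and 0.132. Of all Fgfr2 UMIs, 81.2% and 84.5% were in epithelial cells.

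Fgfr1 (chr8:25513654-25575718, forward strand) was highest in several mesenchymal classes and in lymphatic endothelium. Smooth Muscle had 1.79 (0.923 to 3.12) UMIs per 10000 in Batch 1 and 4.19 (3.05 to 5.6) in Batch 2. Lym-Endo, the lymphatic endothelium, had 2.0 and 2.46, which rests on 9 and 25 UMIs in 13 and 25 cells. MatrixFB-2 had 1.44 and 2.32, MatrixFB-1 1.24 and 1.84 and MyoFB 0.941 and 2.13. None of these 5 classes stood apart from its neighbour. The step from MyoFB to the next class, Proliferative Lymphocyte (0.573 and 0.764), exceeded the batch ranges. Pericyte-1, with 0 and 1.05, overlapped with MyoFB, and Pericyte-2 had 0 and 0.255. In Batch 1 these classes held only 14862 UMIs of all genes in 10 cells and 67804 in 57 cells, so their 0 values say little. Vas-Endo, the blood vessel endothelium, had 0.239 (0.156 to 0.351) UMIs per 10000 in Batch 1 and 0.613 (0.543 to 0.69) in Batch 2. The alveolar classes were low, with 0.107 and 0.103 in AT1, 0.13 and 0.116 in AT1/AT2 and 0.137 and 0.0661 in AT2, values close to those of macrophages at 0.151 and 0.0879. In Smooth Muscle 18.8% (10.2 to 31.9) and 43.1% (31.2 to 55.9) of cells held a UMI, in MatrixFB-1 14.4% (12.2 to 16.8) and 25.3% (22.9 to 27.8).

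Fgfr3 (chr5:33721674-33737068, forward strand) and Fgfr4 (chr13:55152640-55168759, forward strand) were both highest in MatrixFB-1. Fgfr3 had 1.54 (1.33 to 1.76) UMIs per 10000 in Batch 1 and 1.31 (1.17 to 1.47) in Batch 2 there, above Ciliated cells at 1.28 and 0.614, the next class. Secretory airway cells followed with 0.949 and 0.477, and Vas-Endo with 0.405 and 0.631. Unlike Fgfr4, Fgfr3 thus had levels outside the mesenchyme, which held 69.5% and 38.2% of its UMIs, while endothelium held 13.8% and 34.5%. The Fgfr3 level was 1.2 and 0.845 per 10000 over all mesenchymal cells and 0.389 and 0.619 over all endothelial cells. Fgfr4 had 1.32 (1.13 to 1.53) UMIs per 10000 in Batch 1 and 0.615 (0.518 to 0.726) in Batch 2 in MatrixFB-1, and the intervals of the batches did not overlap. MyoFB had 0.412 and 0.0173, and MatrixFB-2 and AT1 had 0 UMIs in both batches. Shares of MatrixFB-1 cells with a UMI were 18.8% (16.4 to 21.5) and 20% (17.9 to 22.4) for Fgfr3 and 15.9% (13.7 to 18.5) and 10.3% (8.75 to 12.2) for Fgfr4. Thinned to 1000 UMIs they were 13.3% and 10.7% for Fgfr3 and 11.2% and 6.51% for Fgfr4. With 1 mouse per batch this gap between the batches was not tested. Macrophages had 0 and 0 UMIs of Fgfr4.

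**Figure D2:**
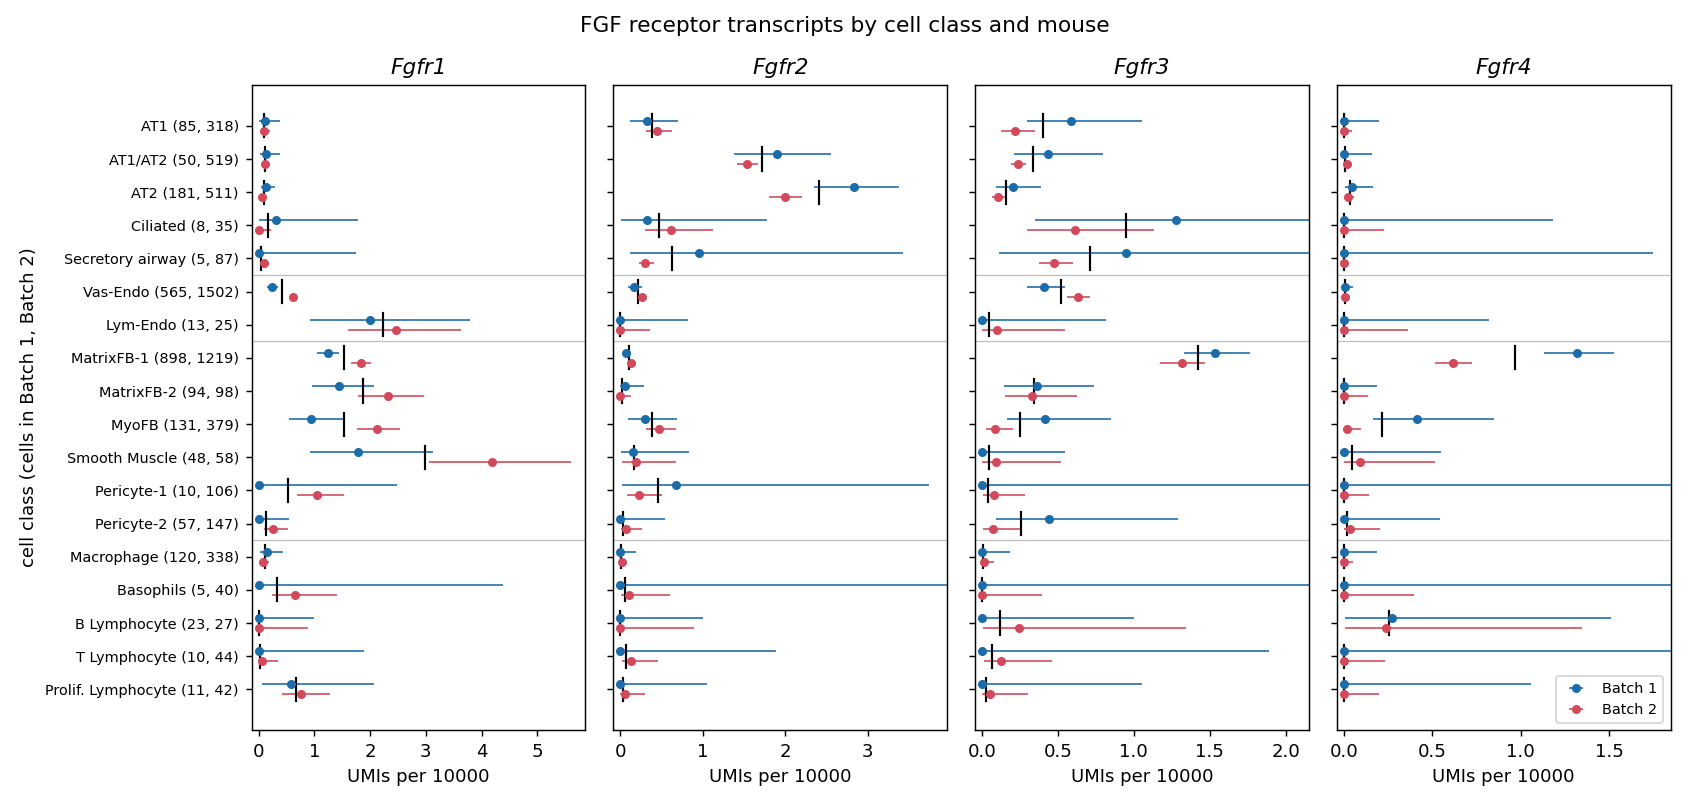
Levels of the 4 receptors in UMIs per 10000 UMIs of a class (horizontal axis, 1 panel per gene) in the 18 classes (vertical axis, with the cells of each batch in parentheses), with 1 point per batch, exact Poisson 95% intervals as bars and the mean of the 2 batches as a black tick; bars of small classes that run past the axis are cut off there. Fgfr2 is high in AT2 (mean 2.41) and AT1/AT2, Fgfr3 and Fgfr4 in MatrixFB-1, and Fgfr1 in several mesenchymal classes and Lym-Endo.

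The promoters of Fgf7, Fgf10, Fgfr3 and Fgfr4 are shown because these members were all higher in MatrixFB-1 than in MatrixFB-2 in the comparison given further on. Each runs from 250 bases before to 50 bases after the RefSeq start, 5′ to 3′ on the forward strand, and comes from RefSeq on GRCm38.p6. Capitals mark matches, on either strand, to the E-box CAGCTG or the forkhead letters TGTTTAC, which were searched on both strands and do not overlap.
Fgf7, chr2:126034408-126034707: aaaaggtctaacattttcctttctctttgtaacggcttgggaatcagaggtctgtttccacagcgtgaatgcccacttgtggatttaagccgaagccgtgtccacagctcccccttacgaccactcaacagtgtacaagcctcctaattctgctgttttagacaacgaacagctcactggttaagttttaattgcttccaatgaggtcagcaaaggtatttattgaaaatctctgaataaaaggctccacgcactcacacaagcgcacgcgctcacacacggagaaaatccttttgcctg
Fgf10, chr13:118714449-118714748: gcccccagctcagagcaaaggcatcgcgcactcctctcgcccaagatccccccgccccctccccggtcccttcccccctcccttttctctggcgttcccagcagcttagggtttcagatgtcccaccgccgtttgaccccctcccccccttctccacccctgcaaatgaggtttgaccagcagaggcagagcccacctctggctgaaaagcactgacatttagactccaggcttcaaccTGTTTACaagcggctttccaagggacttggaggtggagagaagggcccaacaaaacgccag
Fgfr3, chr5:33721474-33721773: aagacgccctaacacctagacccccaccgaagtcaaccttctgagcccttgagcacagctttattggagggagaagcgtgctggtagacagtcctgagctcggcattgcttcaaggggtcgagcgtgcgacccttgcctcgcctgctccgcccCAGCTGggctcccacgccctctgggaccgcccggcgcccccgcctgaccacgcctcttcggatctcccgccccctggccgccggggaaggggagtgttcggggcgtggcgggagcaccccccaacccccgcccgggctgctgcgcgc
Fgfr4, chr13:55152568-55152867: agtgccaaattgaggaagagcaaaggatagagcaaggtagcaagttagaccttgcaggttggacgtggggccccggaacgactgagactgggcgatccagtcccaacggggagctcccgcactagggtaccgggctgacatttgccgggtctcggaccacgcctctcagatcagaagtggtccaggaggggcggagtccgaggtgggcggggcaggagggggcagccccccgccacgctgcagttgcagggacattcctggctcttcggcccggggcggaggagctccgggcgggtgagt
The window of Fgf10 lies inside the annotated gene, whose outermost transcript starts further upstream. It held 1 forkhead match, and that of Fgfr3 held 1 E-box, while a further RefSeq start of Fgfr3 and the windows of Fgf7 and Fgfr4 held neither. Of 32851 promoters of the same length, 16.3% held CAGCTG and 3.65% held TGTTTAC. GC content was 45.7% at Fgf7, 60.7% at Fgf10, 69.7% at Fgfr3 and 65.3% at Fgfr4. A match is a description of the letters only.

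Spry1 (chr3:37639947-37644598, forward strand) was shared by alveolar epithelium, Smooth Muscle and MyoFB. Smooth Muscle had 2.53 (1.47 to 4.05) UMIs per 10000 in Batch 1 and 1.21 (0.644 to 2.07) in Batch 2, from 17 and 13 UMIs. AT1/AT2 had 1.99 and 1.33, AT1 1.66 and 1.26, MyoFB 1.77 and 0.813 and AT2 0.868 and 1.18. No neighbours among these 5 classes were separated beyond the batch ranges. MatrixFB-1 was low, with 0.219 and 0.141. The share of cells with a UMI was 24.7% (16.8 to 34.8) and 23.9% (19.5 to 28.9) in AT1, 46% (33 to 59.6) and 41.6% (37.5 to 45.9) in AT1/AT2 and 16.6% (11.9 to 22.7) and 27.4% (23.7 to 31.4) in AT2. Thinned to 1000 UMIs these shares were 11% and 10.4% in AT1, 19.1% and 7.09% in AT1/AT2 and 6.86% and 9.11% in AT2.

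Spry2 (chr14:105891947-105896819, reverse strand) had its highest mean of the 2 batches in AT2 cells, with 1.03 (0.75 to 1.38) UMIs per 10000 in Batch 1 and 0.895 (0.767 to 1.04) in Batch 2. AT1/AT2 had 0.649 and 1.05, Smooth Muscle 0.447 and 1.21, AT1 0.536 and 0.67 and MatrixFB-2 0.719 and 0.405. In Batch 2 AT1/AT2, Smooth Muscle and Basophils (0.967, from 9 UMIs) were above AT2, and the levels overlapped from neighbour to neighbour. The Basophils value joins 33 cells with neutrophil markers, at 0.404 from 3 UMIs, and 7 cells without them, at 3.2 from 6 UMIs. MatrixFB-1 had 0.098 and 0.215 and Vas-Endo 0.157 and 0.227. A UMI was seen in 17.7% (12.8 to 23.9) and 23.9% (20.4 to 27.8) of AT2 cells and in 0.833% and 0% of macrophages.

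**Figure D3:**
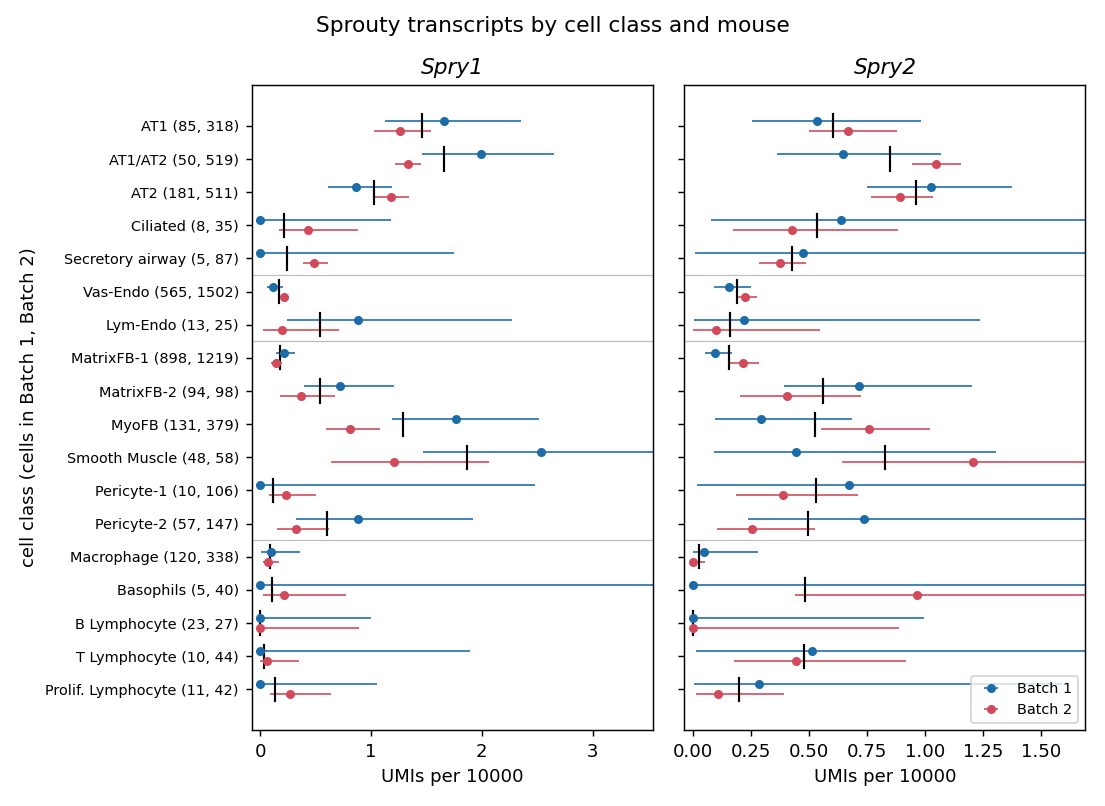
Levels of Spry1 and Spry2 in UMIs per 10000 UMIs of a class (horizontal axis, 1 panel per gene) in the 18 classes (vertical axis, with the cells of each batch in parentheses), with 1 point per batch, exact Poisson 95% intervals as bars and the mean of the 2 batches as a black tick; bars of small classes that run past the axis are cut off there. Both genes are seen in the alveolar epithelium and in Smooth Muscle, and Spry1 also in MyoFB (mean 1.29).

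In all, 6 comparisons between classes were tested with edgeR's quasi-likelihood test on UMIs summed by class and batch, with the batch as a block, and a Benjamini-Hochberg adjusted p under 0.05 over 8399 genes was called. All 10 members passed the filter. Differences are log2 fold changes. The p-values rest on 2 mice and on a spread pooled over 18 classes, and several comparisons share classes.

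AT1 cells were higher than AT2 cells in the ligands Fgf1, Fgf18 and Fgf7 and lower in the receptor Fgfr2. The difference was 5.14 (SE 0.76, adjusted p = 2.77e-07) for Fgf18, 1.52 (SE 0.43, adjusted p = 0.00959) for Fgf1 and -2.91 (SE 0.43, adjusted p = 1.99e-07) for Fgfr2. Fgf7 was at 0.214 and 0.0644 UMIs per 10000 in AT1, from 4 and 5 UMIs, and at 0 in AT2 (adjusted p = 0.00461). These AT1 levels were 3.13-fold in Batch 1 and 4.22-fold in Batch 2 of a floor of 3 counts in the AT2 library. Counting error of the 4 and 5 UMIs is not in these folds, and macrophages were at 0 and 0.0293. For this gene DESeq2 gave an adjusted p of 0.0662. Thus 3 of 10 members were called higher and 1 lower, against 5.27% and 5.29% of all genes. The Sprouty genes were not called, with 0.07 (SE 0.41, adjusted p = 0.976) for Spry1 and -0.998 (SE 0.44, adjusted p = 0.161) for Spry2. Nor were Fgf10, with 1.22 (SE 1.13, adjusted p = 0.639), Fgfr1, with -0.05 (SE 0.78, adjusted p = 1), or Fgfr3, with 0.91 (SE 0.56, adjusted p = 0.389), and Fgfr4 had 7 UMIs in AT2 and 0 in AT1. The call of Fgf1 was lost without the batch block (adjusted p = 0.189). With RLE scaling the median gene moved from -0.05 to 0.22, and the split of all calls went from 443 higher and 444 lower to 692 and 364, or to 722 and 382 with DESeq2.

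MatrixFB-1 exceeded MatrixFB-2, the collagen-rich fibroblast class, in Fgf10, Fgf7, Fgfr3 and Fgfr4, and was lower in Fgf18 and Spry2. The difference was 2.16 (SE 0.57, adjusted p = 0.00804) for Fgf10 and 1.57 (SE 0.50, adjusted p = 0.0388) for Fgf7. Among receptors it was 2.13 (SE 0.50, adjusted p = 0.00165) for Fgfr3, and Fgfr4 had 315 UMIs against 0 (adjusted p = 9.43e-06). The Fgfr4 level of MatrixFB-1 was 8.56-fold in Batch 1 and 5.58-fold in Batch 2 of a floor of 3 counts in the MatrixFB-2 library. Counting error on the MatrixFB-1 side is not in these folds. Fgf18 had -3.90 (SE 0.85, adjusted p = 6.88e-04) and Spry2 -1.68 (SE 0.53, adjusted p = 0.0334). Fgfr1 was not called, with -0.17 (SE 0.40, adjusted p = 0.883), nor were Fgf1, with -1.67 (SE 0.84, adjusted p = 0.294), Fgfr2, with 2.26 (SE 1.17, adjusted p = 0.323), and Spry1, with -1.47 (SE 0.54, adjusted p = 0.0963), although Spry1 passed under 3 of 12 alternatives (adjusted p from 0.0234 to 0.046). So 4 of 10 members were higher and 2 lower, beside 2.55% and 4.71% of all genes.

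Several of these calls depended on the cells or the model. Without the MatrixFB-2 cells that carried mesothelial markers, Fgf18 had -3.18 (SE 1.02, adjusted p = 0.0519), Spry2 -1.42 (SE 0.58, adjusted p = 0.19) and Fgf7 1.29 (SE 0.51, adjusted p = 0.157), so that these 3 calls were lost, while Fgf10 had 1.88 (SE 0.59, adjusted p = 0.0432). DESeq2 did not call Fgf10 (adjusted p = 0.664) or Fgf7, and neither of these nor Spry2 was called without the batch block. Fgf7 also lost its call with RLE scaling and at a mitochondrial limit of 5%, and Spry2 with Leiden labels and without the filter on low counts. For Fgfr4 DESeq2 gave no adjusted p, and its unadjusted p was 0.106. With DESeq2 the split of all calls was 139 higher and 518 lower, against 214 and 396.

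Against MyoFB, MatrixFB-1 was again higher in Fgf10, Fgfr3 and Fgfr4, and it was lower in Fgf18, Spry1, Spry2 and Fgfr2. Fgf10 differed by 4.33 (SE 0.70, adjusted p = 2.43e-06), Fgfr3 by 3.18 (SE 0.53, adjusted p = 4.02e-06) and Fgfr4 by 2.99 (SE 0.66, adjusted p = 7.51e-04). Lower values were -5.51 (SE 0.68, adjusted p = 2.75e-09) for Fgf18, -2.50 (SE 0.47, adjusted p = 4.01e-05) for Spry1, -1.60 (SE 0.48, adjusted p = 0.0191) for Spry2 and -1.71 (SE 0.51, adjusted p = 0.0183) for Fgfr2. Not called were Fgf7, with 0.08 (SE 0.41, adjusted p = 0.965), Fgfr1, with 0.26 (SE 0.40, adjusted p = 0.851), and Fgf1, with 0.74 (SE 1.10, adjusted p = 0.843). This made 3 members higher and 4 lower, with 3.92% and 4.85% of all genes. DESeq2 lost Fgf10 (adjusted p = 0.175) and gave no adjusted p for Fgfr4 (unadjusted p = 0.507), and the calls of Spry2 and Fgfr2 were lost at a mitochondrial limit of 5% and without the filter on low counts. Without the batch block those of Spry2, Fgfr2 and Fgfr4 (adjusted p = 0.0545) were lost. With RLE scaling the median gene moved to -0.44, and the split went from 329 higher and 407 lower to 230 and 803, or to 251 and 887 with DESeq2.

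The alveolar epithelium, as the mean of AT1, AT1/AT2 and AT2, was compared with the mean of the matrix fibroblasts MatrixFB-1 and MatrixFB-2. Epithelium was higher in Fgf1, Fgfr2, Spry1 and Spry2, and fibroblasts in Fgf10, Fgf7, Fgfr1 and Fgfr3. The difference was 4.81 (SE 0.43, adjusted p = 8.55e-16) for Fgfr2, 3.63 (SE 0.38, adjusted p = 5.78e-13) for Fgf1, 2.38 (SE 0.31, adjusted p = 9.14e-10) for Spry1 and 1.66 (SE 0.31, adjusted p = 5.98e-06) for Spry2. On the fibroblast side it was -3.98 (SE 0.33, adjusted p = 2.52e-17) for Fgfr1, -4.34 (SE 0.53, adjusted p = 1.66e-10) for Fgf10 and -1.29 (SE 0.35, adjusted p = 0.00204) for Fgfr3. For Fgfr3 the fibroblast side joins unlike classes, MatrixFB-1 with 1.54 and 1.31 UMIs per 10000 and MatrixFB-2 with 0.359 and 0.331. The epithelial classes had 0.589 and 0.219 in AT1, 0.433 and 0.238 in AT1/AT2 and 0.206 and 0.107 in AT2. MatrixFB-2 thus did not stand above AT1 or AT1/AT2 in both batches. Because AT2 held 0 UMIs of Fgf7, that gene was also fitted with the classes of each side summed, a choice made after seeing the data, which gave -5.82 (SE 0.58, adjusted p = 3.88e-14). In the same fit Fgf18 was 2.67 (SE 0.61, adjusted p = 2.33e-04), against 1.35 (SE 0.58, adjusted p = 0.0632) with averaged classes, and it also passed under 4 of the other alternatives. Fgfr4 had no usable fitted value, since AT1 and MatrixFB-2 held 0 UMIs. The 4 members called higher and 4 lower stand beside 17.0% and 17.6% of all genes.

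Vas-Endo was compared with both tissues. Its levels were 0 and 0.0176 per 10000 for Fgf7, 0.0184 and 0.00882 for Fgf10, 0.0184 and 0.00221 for Fgf18 and 0.12 and 0.218 for Spry1, beside 0 and 0.0293, 0.0504 and 0, 0 and 0.0146 and 0.101 and 0.0732 in macrophages. Against the alveolar epithelium it was higher in Fgfr1, with 1.81 (SE 0.38, adjusted p = 5.21e-05), and lower in Fgfr2, with -2.79 (SE 0.36, adjusted p = 4.51e-10), in Fgf1, with -2.73 (SE 0.39, adjusted p = 9.58e-09), in Fgf18, with -4.37 (SE 0.81, adjusted p = 6.08e-06), and in both Sprouty genes. Spry1 had -3.22 (SE 0.39, adjusted p = 6.37e-11) and Spry2 -2.42 (SE 0.37, adjusted p = 8.00e-08). Hence 1 member was called higher and 5 lower, with 16.8% and 17.7% of all genes. Against the matrix fibroblasts Vas-Endo was higher in Fgfr2, with 2.02 (SE 0.61, adjusted p = 0.00745), and lower in Fgf7, with -5.96 (SE 0.60, adjusted p = 2.43e-13), Fgf10, with -5.66 (SE 0.67, adjusted p = 6.58e-11), Fgf18, with -3.02 (SE 0.82, adjusted p = 0.00306), and Fgfr1, with -2.17 (SE 0.37, adjusted p = 1.18e-06). Here 1 member was higher and 4 lower, with 11.9% and 12.6% of all genes. For Fgf18 the fibroblast side is the mean of 2 unlike classes, MatrixFB-1 with 0.0151 and 0.0132 UMIs per 10000 and MatrixFB-2 with 0.257 and 0.257. The epithelial side was also mixed for Fgf18, with 1.18 and 0.503 in AT1 and 0.303 and 0.169 in AT1/AT2. AT2 had 0.0457 and 0.00508, from 3 UMIs in both batches together. Not called against epithelium was Fgf10, with -1.33 (SE 0.77, adjusted p = 0.194), and not called against fibroblasts were Fgf1, with 0.90 (SE 0.48, adjusted p = 0.196), Spry1, with -0.84 (SE 0.41, adjusted p = 0.146), and Spry2, with -0.76 (SE 0.40, adjusted p = 0.184). Fgf7 against epithelium and Fgfr4 in both had classes at 0 UMIs and no usable fitted value. Fgfr3 did not pass in either comparison, with 0.79 (SE 0.33, adjusted p = 0.0543) against epithelium and -0.50 (SE 0.38, adjusted p = 0.413) against fibroblasts. Against epithelium Fgfr3 passed under 8 of 13 alternatives (adjusted p from 0.0106 to 0.0498), among them RLE scaling and Leiden labels. With the classes of each side summed, 2 more members passed against fibroblasts, Fgfr3 with -1.34 (SE 0.37, adjusted p = 0.00266) and Fgf1 with 1.48 (SE 0.52, adjusted p = 0.0275), and Fgf1 also passed without the mesothelial-marked cells.

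**Figure D4:**
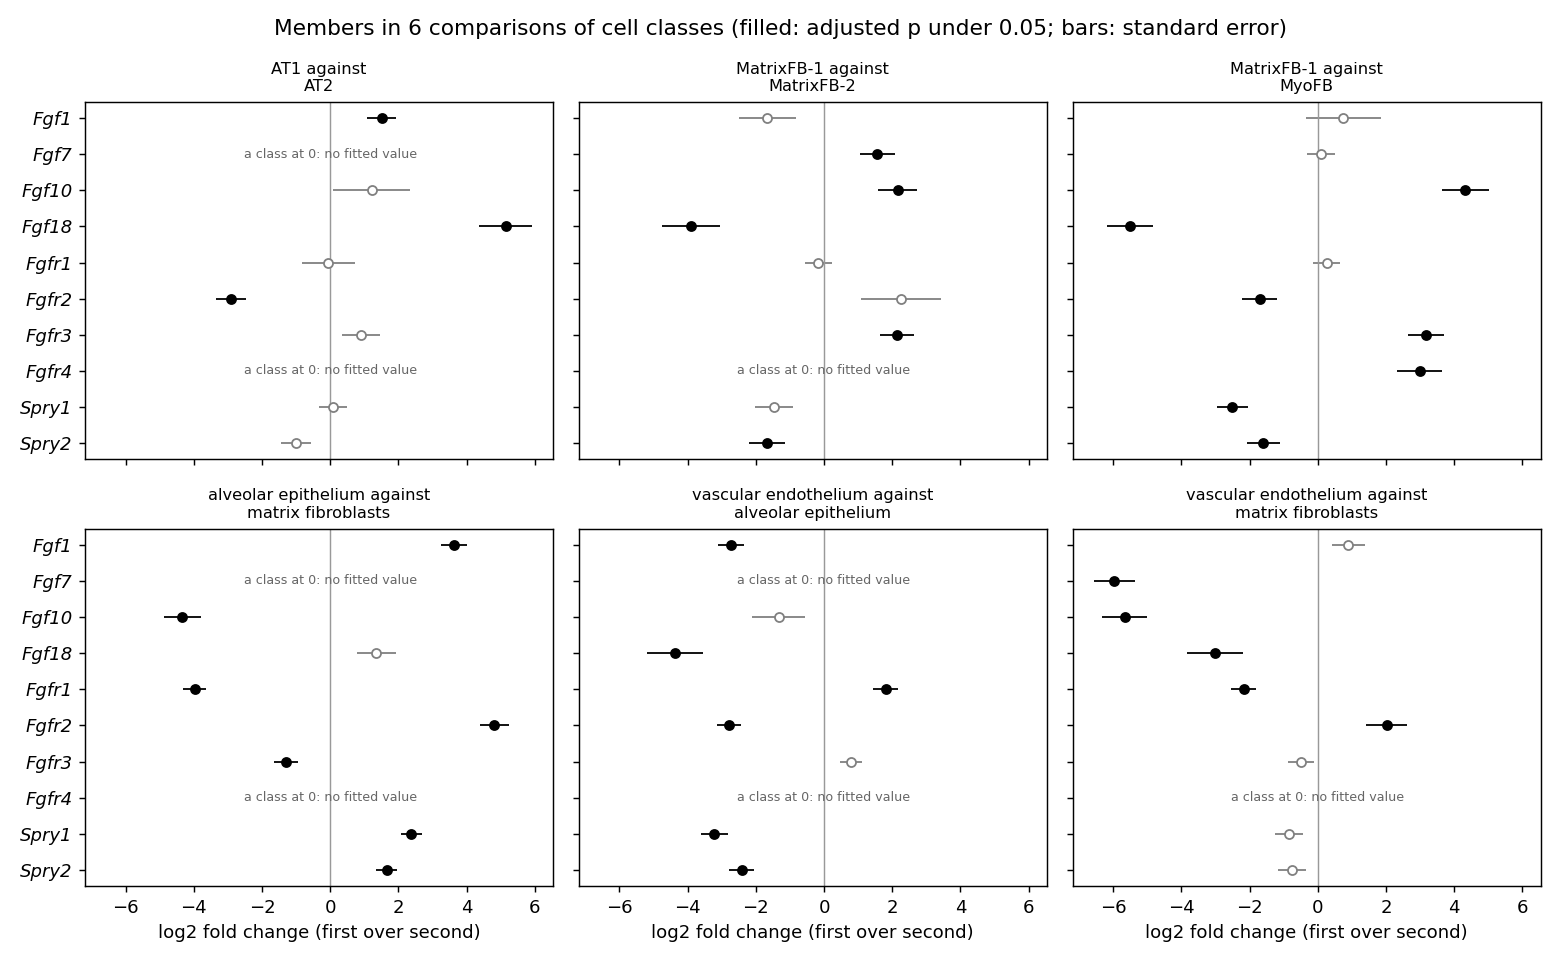
Log2 fold changes, first class over second (horizontal axis), of the 10 members (vertical axis) in the 6 comparisons (panels), with standard errors as bars and filled points where the adjusted p was under 0.05; a text marks genes with a class at 0 UMIs, which have no fitted value. Fgf10 and Fgfr3 lie on the MatrixFB-1 side of both fibroblast comparisons, and Fgfr2 on the AT2 side of the AT1 comparison (-2.91).

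Vascular endothelium was also divided by clustering, with markers of capillary and arterial subtypes. A cluster of 34 and 115 cells led by Car4, Ednrb and Tbx3, called aerocyte-like, had Fgfr1 levels of 0.498 (0.0603 to 1.8) and 1.63 (1.1 to 2.32) per 10000 in Batch 1 and Batch 2. Of the 2 clusters called general capillary-like, that led by Cd93 had 0.252 (0.13 to 0.44) and 0.657 (0.563 to 0.762), and that led by Gpihbp1 had 0.221 (0.0718 to 0.516) and 0.253 (0.126 to 0.453). In an arterial-like cluster led by Cxcl12 and Sema3g, Fgfr3 had 0.564 (0.244 to 1.11) and 0.861 (0.643 to 1.13). The Cd93 cluster had 0.357 (0.208 to 0.572) and 0.623 (0.531 to 0.725) for Fgfr3, and the Gpihbp1 cluster 0.177 (0.0482 to 0.453) and 0.529 (0.335 to 0.794). Fgfr3 was 1.24 (0.404 to 2.9) and 0.434 (0.187 to 0.855) in the aerocyte-like cluster, from 5 and 8 UMIs, and 0.812 (0.327 to 1.67) and 0.678 (0.429 to 1.02) in an unnamed cluster led by Fbln2, Cpe and Vwf, both above the arterial-like value in Batch 1 and below it in Batch 2. For Fgfr3 the intervals of these 5 clusters overlapped in each batch, and for Fgfr1 in Batch 2 the aerocyte-like cluster lay above both general capillary-like clusters. The clusters were made from variable genes of the same cells, with the FGF genes left out, and no test was made between them.

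Whether members shared cells was counted for 7 pairs in the classes where they were high. In MatrixFB-1, 10 of 898 and 48 of 1219 cells held UMIs of both Fgf7 and Fgf10. Fgf10 was seen in 10.5% of cells with Fgf7 and in 11.7% of those without it in Batch 1, and in 18.8% and 22.2% in Batch 2. Fgfr4 was seen in 18.3% of MatrixFB-1 cells with Fgfr3 against 15.4% without it in Batch 1, and in 10.2% against 10.4% in Batch 2. In AT2, Spry2 was found in 16.2% of cells with Fgfr2 against 18.8% without it in Batch 1, and in 30.6% against 18.1% in Batch 2, where the cells with Fgfr2 were also deeper, with a median of 4034 against 2924.5 UMIs. In AT1/AT2, Fgfr2 was found in 50.0% of cells with Fgf1 against 40.6% without it in Batch 1, and in 57.1% against 40.7% in Batch 2, and the cells with Fgf1 were deeper in both, with medians of 4804 against 3332 and 8624 against 4607 UMIs. In AT1, Spry1 was found in 25.9% of cells with Fgf1 against 24.1% without it, and in 32.5% against 21.2%, again with more UMIs in the cells with Fgf1 (2409 against 1477 and 2434 against 1802). In MatrixFB-1, Fgfr1 was found in 14.4% of cells both with and without Fgf10 in Batch 1, and in 27.1% against 24.8% in Batch 2. In MyoFB, Fgfr1 was found in 2 of 10 cells with Fgf18 in Batch 1 and in 8 of 39 in Batch 2, against 9.92% and 23.8% of those without it. The part of depth in these shares was not tested. Cells without a UMI cannot be told from cells that express the gene at a low level.

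The genes whose levels over the 18 classes were most like those of a member are given with Pearson's r in Batch 1 and Batch 2, as a description across classes of the same libraries. Nearest to Fgf10 were Clec3b (0.90 and 0.80), Adh1 (0.90 and 0.80) and Inmt (0.84 and 0.80), and Inmt was also nearest to Fgfr4, with Inmt (0.82 and 0.87). Fgf7 lay nearest to Epha3 (0.86 and 0.91), Palld (0.94 and 0.82) and Wnt5a (0.89 and 0.82), and Fgf18 to Htra1 (0.83 and 0.87). Fgf1 was closest to Pitpnm3 (0.92 and 0.96) and the epithelial keratin Krt7 (0.94 and 0.91). Fgfr2 was closest to Pla2g1b (0.90 and 0.85) and the fatty acid synthase Fasn (0.84 and 0.82), Fgfr1 to Igfbp4 (0.82 and 0.92) and Hdgfrp3 (0.83 and 0.82), and Fgfr3 to Myo10 (0.76 and 0.75). For the Sprouty genes the values were Foxp2 (0.82 and 0.88) for Spry1 and Gm7334 (0.75 and 0.81) for Spry2.

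The wider pathway list held 55 further FGF genes, of which 53 had a row and 29 were tested. They were other ligands, co-receptors and heparan sulphate genes, adaptors, and inhibitors and targets. In AT1 against AT2, 4 were higher and 2 lower, beside 5.27% and 5.29% of all genes, and in MatrixFB-1 against MatrixFB-2, 2 and 7, beside 2.55% and 4.71%. In MatrixFB-1 against MyoFB the counts were 2 and 4, beside 3.92% and 4.85%. In alveolar epithelium against matrix fibroblasts they were 10 and 8, beside 17.0% and 17.6%. Vas-Endo had 4 higher and 12 lower than epithelium, beside 16.8% and 17.7%, and 2 higher and 10 lower than fibroblasts, beside 11.9% and 12.6%. The median log2 fold change of the list was -0.16, -0.27, -0.39, 0.07, -0.69 and -0.99 in this order, beside medians of all genes between -0.05 and 0.09.

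Among the list's genes, Etv5, a transcription factor induced by FGF signalling and needed by AT2 cells, was lower in AT1 than in AT2, with -4.04 (SE 0.47, adjusted p = 2.81e-10). Ier3 had 2.92 (SE 0.51, adjusted p = 8.83e-06) and the heparan sulphate enzyme Hs2st1 2.39 (SE 0.48, adjusted p = 1.32e-04). MatrixFB-1 was lower than MatrixFB-2 in the sulphatases Sulf1, with -5.68 (SE 0.86, adjusted p = 9.21e-07), and Sulf2, with -5.00 (SE 0.81, adjusted p = 3.37e-06), which trim heparan sulphate, and in the ligand Fgf9, with -5.33 (SE 1.03, adjusted p = 1.18e-04), a gene that mesothelium is known to express. Without the mesothelial-marked cells the values were -5.28 (SE 0.92, adjusted p = 3.33e-05) for Sulf1 and -3.64 (SE 1.01, adjusted p = 0.0167) for Sulf2, and Fgf9 no longer passed the filter on low counts. Against MyoFB it was higher in the glypican Gpc3, with 3.93 (SE 0.54, adjusted p = 3.33e-08), and lower in Gpc4, with -2.51 (SE 0.64, adjusted p = 0.00388), and in Flrt3, with -3.99 (SE 0.60, adjusted p = 4.80e-07).

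Alveolar epithelium exceeded matrix fibroblasts in the syndecan Sdc1, with 4.40 (SE 0.34, adjusted p = 3.13e-19), and in Flrt3, with 4.65 (SE 0.47, adjusted p = 1.37e-13), and was lower in the transcription factor Etv1, with -4.72 (SE 0.59, adjusted p = 2.31e-10). Vas-Endo was lower than epithelium in Fgfbp1, which releases FGFs from matrix, with -5.87 (SE 0.56, adjusted p = 2.81e-14), in Sdc1, with -5.20 (SE 0.45, adjusted p = 8.99e-17), and in Sdc4, with -4.87 (SE 0.46, adjusted p = 6.18e-15). Against fibroblasts it was lower in Gpc3, with -6.88 (SE 0.53, adjusted p = 2.24e-18), Sdc2, with -4.49 (SE 0.45, adjusted p = 2.23e-13), and Etv1, with -4.75 (SE 0.63, adjusted p = 1.92e-09).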

How the data were processed

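Drop-seq counts of lung cells of 2 newborn mice, 1 per batch, were analysed. To make the deposited UMI counts, the authors aligned reads to mm10 with Bowtie2 2.2.7 and ran Drop-seq tools to collapse reads to distinct UMIs for every gene in a cell, without normalizing them. Of 9944 deposited cells, 1 and 1940 exceeded 10% mitochondrial UMIs and were removed, and all cells had at least 500 genes. Unlisted cells were labelled by naive Bayes classification over 23892 genes, trained on 1998 listed cells, and 89.6% of them had the same class in 31 Leiden clusters. Members and gene lists were chosen with earlier results of these data known. Named genes were all members and, in the wider list, the 3 largest called log2 fold changes of genes reaching 50 CPM in the higher group. For likeness they were taken from the 3 genes whose lower batch-wise correlation was highest.

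Counts summed by class and batch, for the 18 classes with at least 5 cells in both batches, were fitted with edgeR 4.0.16 (TMM, filterByExpr) in R 4.3.3; standard errors are the fold change over the root of the F statistic. Same-batch deviations from class means correlated in all 21 class pairs (0.20 to 0.55, median 0.39), and each batch is 1 mouse, so the batch was a block. On data simulated for AT1 against AT2, 4 of 50 changes of 2-fold, 41 of 50 of 4-fold and 50 of 50 of 8-fold were called, with 5 false calls of 8399 genes. The changed genes were drawn only from genes above a minimum mean fitted count in these classes, so the shares do not cover sparser genes. Alternatives included DESeq2 1.42.0, RLE scaling, other labels and filters, and each batch alone. Positions are GENCODE on GRCm38.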

Additional observations from a re-analysis of the deposited data

Results flagged for a closer look

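The 1940 cells of Batch 2 with over 10% mitochondrial UMIs entered no comparison, and all 10 members were detected in them above the limit that a count of 0 allows. Levels are UMIs per 10000 with exact Poisson 95% intervals, beside the level in the kept cells of the same batch, and no difference was tested. Of the ligands, Fgf1 had 0.346 (0.296 to 0.401) against 0.333, Fgf7 had 0.312 (0.265 to 0.365) against 0.303, Fgf10 had 0.264 (0.221 to 0.313) against 0.215 and Fgf18 had 0.105 (0.0789 to 0.138) against 0.0971. Of the receptors, Fgfr1 had 0.59 (0.525 to 0.662) against 0.606, Fgfr2 had 0.726 (0.653 to 0.804) against 0.691, Fgfr3 had 0.386 (0.333 to 0.444) against 0.456 and Fgfr4 had 0.0736 (0.0518 to 0.101) against 0.0878. Of the Sprouty genes, Spry1 had 0.70 (0.629 to 0.777) against 0.633 and Spry2 had 0.674 (0.604 to 0.75) against 0.519. The make-up of these cells by class was not analysed here.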

How the results depend on the processing

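Over 36 called member differences, 448 tested values under alternatives were computed, of which 426 kept direction and call, 22 kept direction but lost the call, and 0 reversed. Lost calls fell on 10 differences. The alternatives are not independent, and several counted here changed few or none of the compared cells, so the tally overstates how firm the calls are. These were the posterior limit, the FGF genes in the label model and, in comparisons without MatrixFB-2, the removal of mesothelial-marked cells. The 72 single-batch values have no test, and all 72 had the direction of the joint fit. The differences were chosen by that fit of the same 2 batches, which favours such a result. Without the batch block that pairs the classes of a mouse, calls over all genes went from 887 to 480 in AT1 against AT2, from 610 to 287 in MatrixFB-1 against MatrixFB-2 and from 736 to 371 in MatrixFB-1 against MyoFB, and members called from 6 to 3 and from 7 to 4 in the last 2. Fits of the compared classes alone called 1715, 1161 and 1443 genes in the same order, and 4384 against 2896 in Vas-Endo against alveolar epithelium. Without mesothelial-marked MatrixFB-2 cells, an alternative chosen after seeing the data, 406 genes were called in MatrixFB-1 against MatrixFB-2. DESeq2 called 1138 genes in MatrixFB-1 against MyoFB, and 3 members in MatrixFB-1 against MatrixFB-2. RLE scaling moved the median gene to 0.14 in Vas-Endo against epithelium and to 0.09 against fibroblasts. Fgfr2 in AT2 was 3.01 UMIs per 10000 in the listed cells of Batch 1, and Spry2 in AT2 was 0.844 at a mitochondrial limit of 5%. With either batch left out, levels ranged over 1.42 to 1.77 for Fgf1 in AT1, 0.706 to 2.09 for Fgf7 in MyoFB, 0.935 to 1.56 for Fgf10 in MatrixFB-1, 0.465 to 1.79 for Fgf18 in Smooth Muscle, 1.79 to 4.19 for Fgfr1 in Smooth Muscle, 1.99 to 2.83 for Fgfr2 in AT2, 1.31 to 1.54 for Fgfr3 in MatrixFB-1, 0.615 to 1.32 for Fgfr4 in MatrixFB-1, 1.21 to 2.53 for Spry1 in Smooth Muscle, 0.895 to 1.03 for Spry2 in AT2. The block changed no call of a member other than those named in the report. Dropping cells whose label had a posterior under 0.99 (7990 of 8003 cells stayed) or adding FGF genes to the label model (99.95% same labels) lost no call of a member. Gained calls are given in the report, except Spry2 in AT1 against AT2, which passed only in the fit of these classes alone (adjusted p = 0.0356). The cause of these changes was not tested. Leiden clusters gave no Secretory airway, Smooth Muscle, Basophils or Proliferative Lymphocyte class.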
